A study of Mus musculus with 6 samples.

Results

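The genes described here encode the MARCKS proteins and 6 isoforms of protein kinase C (PKC), the kinase family that phosphorylates them. The 8 genes are Marcks, Marcksl1, Prkca, Prkcb, Prkcd, Prkce, Prkch and Prkcq, of 55536 genes in the deposited tables. They were picked by symbol, with earlier results of these libraries known, and their Ensembl identifiers were matched to mouse GENCODE M21. The difference between the treatments therefore chose some of them, and their own values are given as a description, without p-values.

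The cells were RAW264.7, an immortalized mouse macrophage line that can form osteoclast-like cells when given RANKL, the cytokine that drives osteoclast formation. The RANKL + etelcalcetide group held 3 libraries, from cells that received RANKL (50 ng/mL) together with etelcalcetide (4 µM). Etelcalcetide, a calcimimetic peptide, acts on the calcium-sensing receptor of the parathyroid gland and lowers parathyroid hormone. The RANKL group held 3 libraries, from cells that received RANKL (50 ng/mL) alone, so that the cells of all 6 libraries had RANKL. The sample labels gave 5, 6 and 7 days of treatment for replicates 1, 2 and 3 of each group, while the series text gave 5 days for all, and the deposited values cannot tell which holds. Nothing in the labels said that replicates were separate cultures, so the p-values below measure only the spread between these libraries, which may be technical. RNA abundance was deposited as FPKM (fragments per kilobase of exon, scaled to the library's total), and the reads behind each value were recovered from it with the exon length of each gene. The libraries held 13742913 to 16264432 such reads.

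MARCKS and its smaller relative MARCKSL1 sit on the inner face of the plasma membrane, held there by a myristoyl group and by a basic stretch called the effector domain. The effector domain binds the lipid PIP2, calmodulin and actin filaments, and its phosphorylation by PKC releases the protein from the membrane. Conventional PKC isoforms (Prkca, Prkcb) need both calcium and diacylglycerol for activity, calcium-independent isoforms (Prkcd, Prkce, Prkch, Prkcq) need diacylglycerol alone, and atypical isoforms need neither. Each isoform is kept off by its own pseudosubstrate, a stretch that resembles a substrate but has an alanine where the substrate would have a serine or threonine. In mouse osteoclasts, PKC delta has been tied to cathepsin K release and to the phosphorylation of MARCKS.

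The coding stretches that define these roles are shown first, because they set the roles of the 8 genes as substrates and kinases. The effector domain stretch of each MARCKS gene is the run of 25 codons with the most lysine and arginine codons, written 5′ to 3′ from GENCODE M21 transcripts (GRCm38), with the serine codons in capitals.
Marcks (chr10:37136531-37136605, minus strand): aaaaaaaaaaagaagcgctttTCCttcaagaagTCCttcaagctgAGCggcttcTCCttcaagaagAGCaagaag
Marcksl1 (chr4:129514885-129514959, plus strand): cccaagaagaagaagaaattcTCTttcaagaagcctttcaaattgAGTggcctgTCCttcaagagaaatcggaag
Both stretches lie in exon 2 of 2. The Marcks stretch held 5 serine codons, and the Marcksl1 stretch held 3. At 52 of 75 positions the bases were the same, and 18 of 25 codons gave the same residue. The Marcks stretch held 12 lysine codons and 1 arginine codon, and the Marcksl1 stretch held 10 lysine and 2 arginine codons.

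The pseudosubstrate stretches of the 6 PKC genes are written in the same way, 15 codons each, with capitals on the alanine codon that stands in the place of the phosphorylated residue.
Prkca (chr11:108343572-108343616, minus strand): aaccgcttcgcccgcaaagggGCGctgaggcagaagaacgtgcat
Prkcb (chr7:122289396-122289440, plus strand): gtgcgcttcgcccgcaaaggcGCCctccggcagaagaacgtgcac
Prkcd (chr14:30607365-30607409, minus strand): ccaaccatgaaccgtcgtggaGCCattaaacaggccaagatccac
Prkcq (chr2:11245294-11245338, plus strand): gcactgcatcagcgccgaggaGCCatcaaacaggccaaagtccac
Prkce (chr17:86474358-86474402, plus strand): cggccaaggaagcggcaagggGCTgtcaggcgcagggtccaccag
Prkch (chr12:73691580-73691624, plus strand): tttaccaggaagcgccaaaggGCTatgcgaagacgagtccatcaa
The stretches of the conventional isoforms lie in exon 1 of 17 in both genes. Those of the calcium-independent isoforms lie further in, in exon 4 of 17 of Prkcd, exon 5 of 18 of Prkcq, exon 4 of 16 of Prkce and exon 3 of 14 of Prkch. Over the whole coding sequence the closest pair of PKC genes was Prkca and Prkcb, identical at 76.4% of the shorter one, followed by Prkce and Prkch at 70.2% and Prkcd and Prkcq at 68.7%, while Marcks and Marcksl1 were identical at 69.8%. The longest run of identical bases was 38 between Prkca and Prkcb and 17 between Marcks and Marcksl1. How reads that matched more than 1 gene were counted is not stated in the labels. The processed pseudogenes Marcksl1-ps4 and Prkcz2 held 0 reads in all libraries and 24 reads in etelcalcetide libraries against 17 in RANKL libraries.

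Both MARCKS genes were higher with etelcalcetide, and Marcks was at 0 or 1 read per library without it. Marcks (ENSMUSG00000069662, chr10:37133375-37138920, minus strand) had 2.19, 2.48 and 2.73 FPKM in RANKL + etelcalcetide libraries, against 0, 0.0156 and 0.017 FPKM in RANKL libraries. The reads behind these values were 137, 138 and 180 in RANKL + etelcalcetide libraries and 0, 1 and 1 in RANKL libraries. The groups did not overlap, and every RANKL library was below the 3 reads that a count of 0 allows, which stood for 0.0467 to 0.051 FPKM there. Summed over each group, 455 reads with etelcalcetide against 2 without gave a ratio of 216 per scaled read total, and the exact counting interval at 95% ran from 59.5 to 1790, covering counting error only. On the scale of log2(FPKM + 0.1) the fold change was 4.49 (SE 0.206), a value that the pseudocount sets: it was 1.75 with a pseudocount of 1 FPKM, 6.96 with 0.01 FPKM and 7.11 from limma-voom on the recovered reads. Marcks passed the filter on low values only through the etelcalcetide libraries.

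Marcksl1 had the highest FPKM of the 8 genes in both groups. Marcksl1 (ENSMUSG00000047945, chr4:129513581-129515985, plus strand) had 224, 231 and 226 FPKM in RANKL + etelcalcetide libraries, against 57.4, 58.4 and 68.0 FPKM in RANKL libraries. All 3 treated libraries lay close together and far above the highest RANKL library. The means were 227 ± 3.97 FPKM with etelcalcetide and 61.2 ± 5.86 FPKM with RANKL alone (SD, n = 3 each), a log2 fold change of 1.81 (SE 0.0674). Among all tested genes this mean stood at percentile 98.3 with etelcalcetide and 93.3 with RANKL alone. FPKM divides by the exon length merged over all transcripts of a gene, 1605 bases for Marcksl1 and 5544 for Prkcd. The Prkcd transcript with the longest coding sequence has only 2103 coding and 509 untranslated bases. With RANKL alone Prkcd held 10316 reads and Marcksl1 4477, so which of them ranks first there depends on the length used. Per length, Marcksl1 exceeded Marcks 82.7- to 102-fold in the etelcalcetide libraries, so that Marcks, though its ratio between groups was far larger, added little to the summed MARCKS transcripts of 230 ± 4.06 FPKM with etelcalcetide and 61.2 ± 5.86 FPKM with RANKL alone (SD, n = 3 each).

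**Figure D1:**
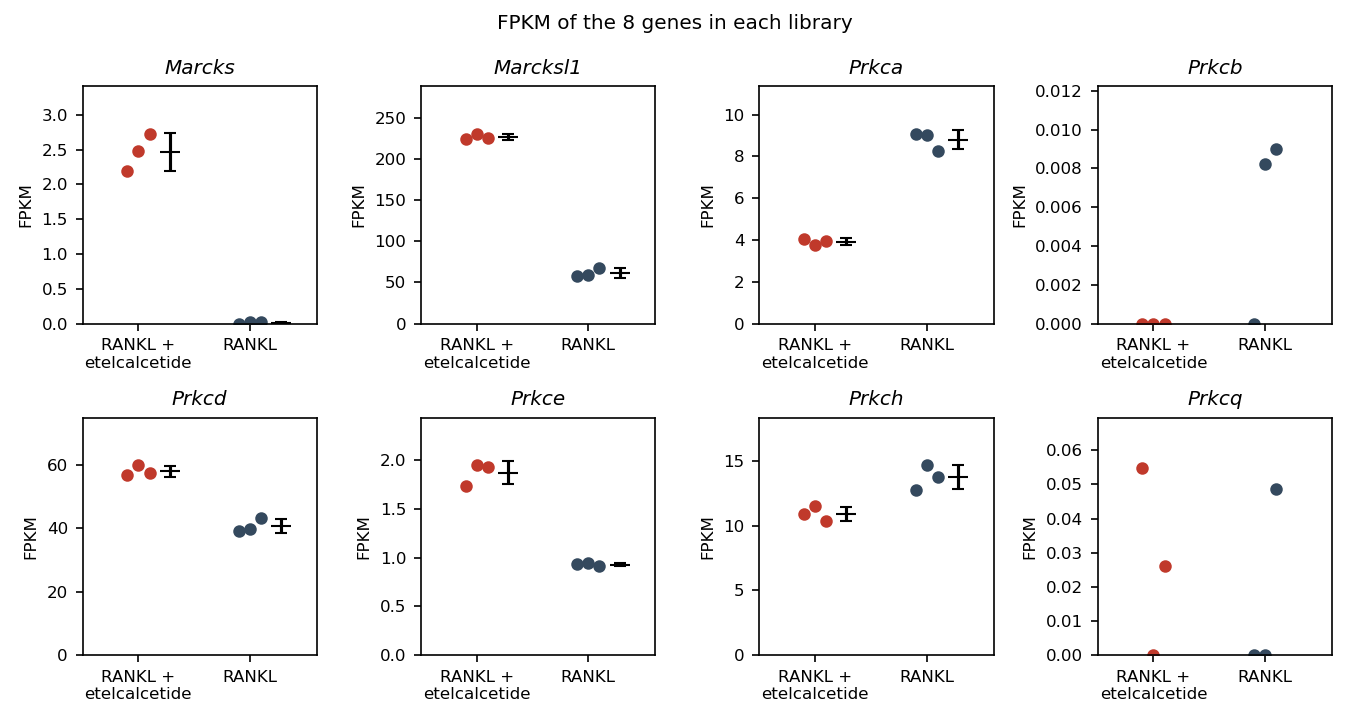
FPKM of each of the 8 genes (vertical axes, linear and scaled per gene) in the 3 RANKL + etelcalcetide libraries (red) and the 3 RANKL libraries (dark blue), with the mean ± SD as a black bar beside the points except for Prkcb and Prkcq. The groups do not overlap for Marcks, Marcksl1, Prkca, Prkcd, Prkce and Prkch, while Prkcb and Prkcq stay below 0.06 FPKM in every library.

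Of Prkca and Prkcb, the conventional isoforms among the 8 genes, Prkca was well detected and lower with etelcalcetide. Prkca encodes PKC alpha, a widely expressed calcium-dependent isoform (ENSMUSG00000050965, chr11:107933387-108343928, minus strand). It had 4.07, 3.74 and 3.97 FPKM in RANKL + etelcalcetide libraries, against 9.10, 9.01 and 8.27 FPKM in RANKL libraries. The highest treated library was below the lowest RANKL library, and the spread within each group was small. The means were 3.93 ± 0.172 FPKM with etelcalcetide and 8.79 ± 0.456 FPKM with RANKL alone (SD, n = 3 each), a log2 fold change of -1.22 (SE 0.078). Of all genes tested, 7.14% differed between the groups by more than 1 on this scale.

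Prkcb, which encodes PKC beta (ENSMUSG00000052889, chr7:122288751-122634402, plus strand), was at the limit of detection. It had 0, 0 and 0 reads in RANKL + etelcalcetide libraries and 0, 1 and 1 reads in RANKL libraries, the last 2 standing for 0.00823 and 0.009 FPKM. A count of 0 allows up to 3 reads, or 0.0241 to 0.0285 FPKM in the etelcalcetide libraries, so a difference was not detectable at this depth and no fold change is given.

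Prkcd was the most abundant PKC gene, and was higher with etelcalcetide. It encodes PKC delta (ENSMUSG00000021948, chr14:30595354-30626210, minus strand). Its level was 56.7, 60.0 and 57.5 FPKM in RANKL + etelcalcetide libraries, against 39.1, 39.9 and 43.3 FPKM in RANKL libraries. No treated library reached down to the RANKL range. The means were 58.0 ± 1.71 FPKM with etelcalcetide and 40.8 ± 2.24 FPKM with RANKL alone (SD, n = 3 each), a log2 fold change of 0.43 (SE 0.0568).

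Prkce, the gene of PKC epsilon (ENSMUSG00000045038, chr17:86167785-86657919, plus strand), was also higher with etelcalcetide, at a far lower level. It had 1.74, 1.95 and 1.93 FPKM in RANKL + etelcalcetide libraries, against 0.930, 0.945 and 0.910 FPKM in RANKL libraries. These values rested on 618 reads in the treated group and 308 in the RANKL group. The log2 fold change was 0.87 (SE 0.127), or 0.53 with a pseudocount of 1 FPKM. Prkce shares 6.5% of its exon length with AC154542.1 on the same strand, which held 0 reads with etelcalcetide and 1 read with RANKL alone.

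Prkch went the other way. It encodes PKC eta (ENSMUSG00000021108, chr12:73584796-73778185, plus strand), and had 10.9, 11.5 and 10.4 FPKM in RANKL + etelcalcetide libraries, against 12.8, 14.7 and 13.8 FPKM in RANKL libraries. The highest treated library, at 11.5 FPKM, was still below the lowest RANKL library, at 12.8 FPKM. The means were 11.0 ± 0.54 FPKM with etelcalcetide and 13.8 ± 0.99 FPKM with RANKL alone (SD, n = 3 each), a log2 fold change of -0.41 (SE 0.0774).

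Prkcq, which encodes PKC theta, the isoform best known from T cells (ENSMUSG00000026778, chr2:11172108-11301222, plus strand), was barely detected. Its reads were 6, 0 and 3 in RANKL + etelcalcetide libraries and 0, 0 and 5 in RANKL libraries. The groups overlapped, and the ratio of summed reads per scaled total was 1.71 with a 95% exact counting interval of 0.515 to 6.5.

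In the fit over all genes, 6 of the 8 genes passed the filter on low values and all 6 passed the threshold of an adjusted p of 0.05, 4 higher and 2 lower with etelcalcetide. The same fit called 53.0% of the 11120 genes tested, and because the genes were chosen on this contrast nothing is read from their count. Of the same 11120 genes, 26.0% were higher and 27.0% lower with etelcalcetide, and 61.2% had groups that did not overlap. The split of the calls depended on the scaling: it was 2896 higher and 2998 lower in the main fit, and 3558 higher and 2272 lower when libraries were scaled by their totals alone. The directions of the 6 genes stayed as given under all 13 alternatives in processing. For Marcks this was fixed in advance, since it passed the filter only through the etelcalcetide libraries.

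**Figure D2:**
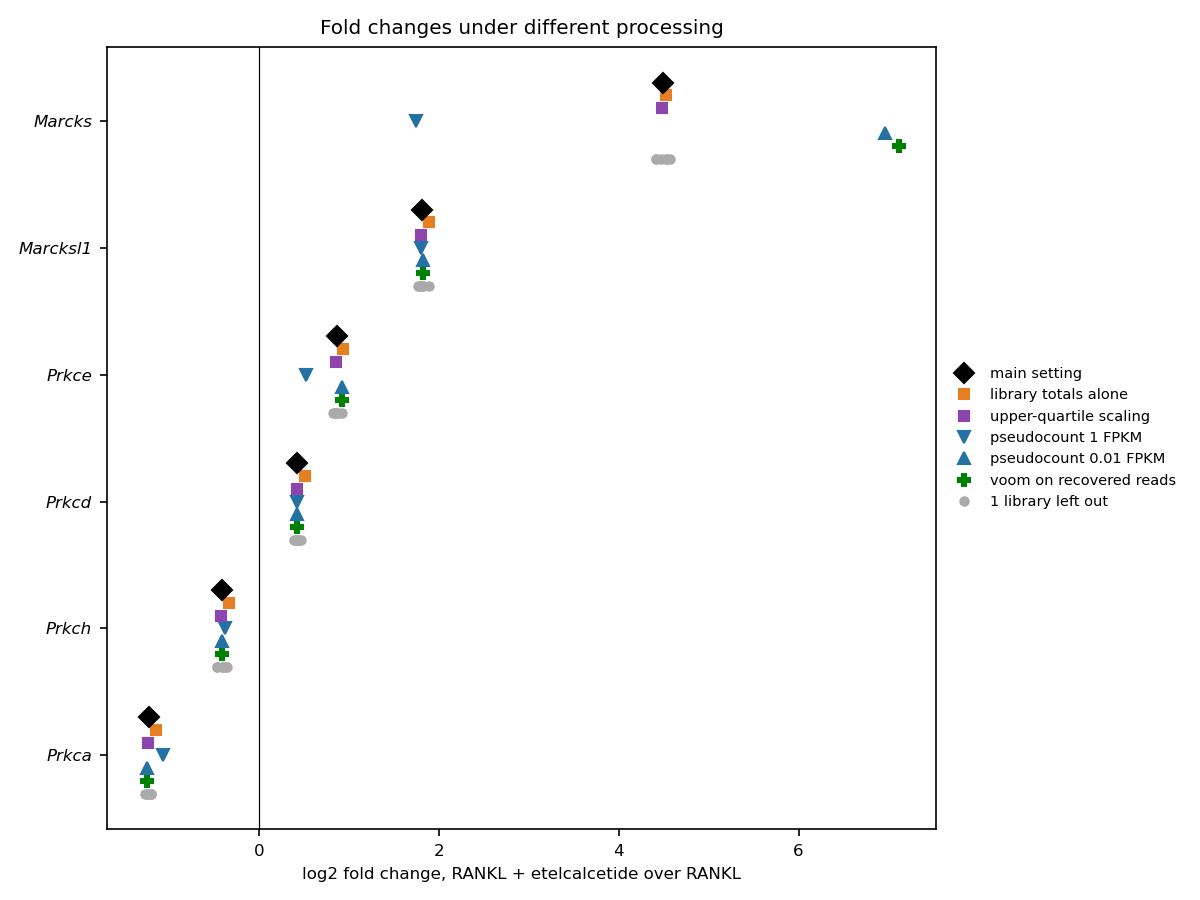
Log2 fold change of RANKL + etelcalcetide over RANKL (horizontal axis) for the 6 genes that passed the filter, under the main setting (black diamonds), other scalings, other pseudocounts, limma-voom on recovered reads and with 1 library left out (grey). Marcks moves between 1.75 and 7.11 with the pseudocount and the method, while Marcksl1 stays between 1.77 and 1.89.

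The order of the levels in FPKM was the same in both groups for the tested genes other than Marcks. With etelcalcetide it ran Marcksl1, Prkcd, Prkch, Prkca, Marcks, Prkce, and no neighbouring pair overlapped over the 3 libraries. The closest neighbours there were Marcks, with a lowest library of 2.19 FPKM, and Prkce, with a highest of 1.95 FPKM. With RANKL alone it ran Marcksl1, Prkcd, Prkch, Prkca, Prkce, again without overlap between neighbours. Below these, Prkcq and Prkcb with etelcalcetide, and Prkcq, Marcks and Prkcb with RANKL alone, overlapped and had no order. Only Marcks changed its place, standing between Prkca and Prkce in FPKM with etelcalcetide. The merged exon length was 7261 bases for Prkce, whose transcript with the longest coding sequence has only 2214 coding and 947 untranslated bases. For Marcks it was 4048, with 930 coding and 3118 untranslated bases in that transcript. The order between genes depends on these lengths, and no other lengths were used.

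Prkcd made up a larger share of the PKC transcripts with etelcalcetide. A set of 8 PKC isoform genes, which are the 6 above with the atypical Prkci and Prkcz, summed to 85.5 ± 1.50 FPKM with etelcalcetide and 75.9 ± 1.03 FPKM with RANKL alone (SD, n = 3 each). Prkcd made up 67.0%, 68.7% and 67.8% of that sum in RANKL + etelcalcetide libraries, against 52.4%, 52.4% and 56.4% in RANKL libraries. Prkca made up 4.82%, 4.28% and 4.68% in RANKL + etelcalcetide libraries, against 12.2%, 11.8% and 10.8% in RANKL libraries. Neither share overlapped between the groups, and they lay on opposite sides. Prkch held 12.8% ± 0.465 with etelcalcetide and 18.1% ± 1.15 with RANKL alone, and Prkci held 12.5% ± 0.836 with etelcalcetide and 15.3% ± 1.82 with RANKL alone (SD, n = 3 each). Prkce stayed a small part, 2.19% ± 0.116 with etelcalcetide and 1.22% ± 0.0333 with RANKL alone. Within a library, Prkcd exceeded Prkca 14.8 ± 1.1-fold with etelcalcetide and 4.66 ± 0.51-fold with RANKL alone. The ratio of the main substrate transcript to the main kinase transcript, Marcksl1 over Prkcd, was 3.91 ± 0.0467 with etelcalcetide and 1.50 ± 0.06 with RANKL alone (SD, n = 3 each). These shares and ratios compare levels per length within a library and need no scaling between libraries. Their sizes depend on the merged exon length of each gene, which was the same for both groups. The sums of the 8 PKC genes are of deposited FPKM, before division by the scaling factors of the fit. Those factors were 1.013 to 1.039 with etelcalcetide and 0.9666 to 0.9782 with RANKL alone, and would bring the sums of the groups closer. The shares, ratios and sums are of RNA and do not give the amounts of protein or kinase activity.

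**Figure D3:**
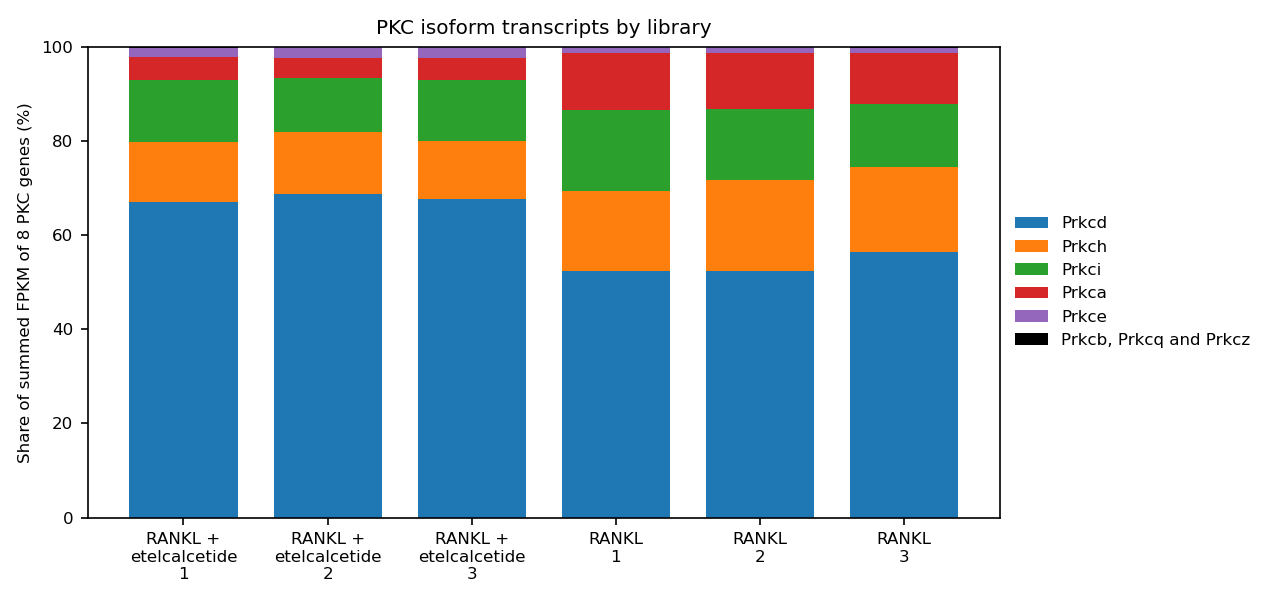
Share of each PKC isoform gene in the summed FPKM of the 8 isoform genes (vertical axis, percent), stacked for each of the 3 RANKL + etelcalcetide libraries and the 3 RANKL libraries. Prkcd is the largest share in every library, 67.0% to 68.7% with etelcalcetide and 52.4% to 56.4% with RANKL alone, and Prkcb, Prkcq and Prkcz are too small to see.

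Markers of cell state differed between the groups alongside these values. The summed FPKM of 10 osteoclast markers was 206 to 219 with etelcalcetide and 393 to 539 with RANKL alone. Of the 9 tested, 6 fell and none rose, among them Ctsk, the gene of cathepsin K, with a log2 fold change of -8.40, and Acp5, the gene of the tartrate-resistant acid phosphatase, with -4.92 (limma adjusted p = 1.45e-07). Ctsk was among 3 of the 6 that passed the filter only through the RANKL libraries. Of the other 6 tested, 3 fell. The remaining 3, Mmp9, Dcstamp and Itgb3, did not pass. Mmp9, the largest of these osteoclast markers, had 154 to 169 FPKM with etelcalcetide and 134 to 173 FPKM with RANKL alone (log2 fold change -0.03). The 8 macrophage markers summed to 2970 to 3130 FPKM with etelcalcetide and 2640 to 2790 FPKM with RANKL alone. As for the other marker sums, this is deposited FPKM without the scaling factors. Lyz2, the largest of these macrophage markers, had 1790 to 1910 FPKM with etelcalcetide and 1630 to 1860 FPKM with RANKL alone (log2 fold change -0.01). Of the 7 tested, 4 rose, among them Adgre1, the F4/80 antigen, with a log2 fold change of 1.50 (limma adjusted p = 2.31e-07), while Csf1r, the receptor of the growth factor CSF-1, had 0.10 (limma adjusted p = 0.111). The 8 dendritic cell markers summed to 22.8 to 30.1 FPKM with etelcalcetide and 7.21 to 10.0 FPKM with RANKL alone, with 2 of 3 tested higher, 1 of them through the filter only with etelcalcetide, and Cd209a at 0 reads in every library. Most of the difference in this sum lay in Ccr7, the gene with that filter limit, at 16.1 FPKM with etelcalcetide and 0.136 FPKM with RANKL alone. Itgax, the other large marker, had 8.0 FPKM with etelcalcetide and 8.29 FPKM with RANKL alone (log2 fold change -0.11). T cell markers summed to 1.49 to 1.85 FPKM with etelcalcetide and 0.96 to 1.73 FPKM with RANKL alone, with 1 of 8 tested and higher and Cd3e and Cd3g at 0. B cell, fibroblast and neuron markers had no tested gene, and Ms4a1, Pax5, Col1a2, Col3a1, Lum, Rbfox3, Snap25 and Syt1 were at 0 reads. The part of these cell state differences in the values of the MARCKS and PKC genes was not tested, and in bulk RNA fewer cells of a type and less RNA per cell cannot be told apart.

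Among the tested genes other than Marcks, Marcksl1 had the largest rise and Prkca the largest fall. Their promoters are shown next, as the 300 bases around the RefSeq start (GRCm38.p6). Capitals mark matches to the GC box GGGCGG, bound by SP factors, and to the purine core GAGGAA, bound by the macrophage factor PU.1, on either strand.
Marcksl1 (chr4:129513331-129513630, plus strand): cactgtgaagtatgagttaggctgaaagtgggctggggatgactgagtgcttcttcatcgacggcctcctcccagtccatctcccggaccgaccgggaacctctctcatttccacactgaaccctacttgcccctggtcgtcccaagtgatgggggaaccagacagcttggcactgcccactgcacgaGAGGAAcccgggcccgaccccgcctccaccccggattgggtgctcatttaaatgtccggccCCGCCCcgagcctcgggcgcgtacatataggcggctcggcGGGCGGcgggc
Prkca (chr11:108343839-108344138, minus strand): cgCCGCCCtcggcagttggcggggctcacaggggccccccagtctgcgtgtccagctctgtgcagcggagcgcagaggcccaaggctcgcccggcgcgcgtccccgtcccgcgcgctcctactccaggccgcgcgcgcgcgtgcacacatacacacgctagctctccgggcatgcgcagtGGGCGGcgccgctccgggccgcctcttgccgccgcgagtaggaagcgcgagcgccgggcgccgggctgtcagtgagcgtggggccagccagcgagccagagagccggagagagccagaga
GC boxes were found at 2 places in each, and in 35.7% of 32851 promoters of the same length. GAGGAA was found once in the Marcksl1 promoter, not in that of Prkca, and in 28.3% of all promoters. The upstream promoter of Prkcd (chr14:30626159-30626458, minus strand) held 4 GC boxes and 1 match to the E box CACGTG, which 7.15% of promoters hold. The Prkcb promoter held 1 GC box, and the Prkcq promoter 1 GC box and 1 GAGGAA. The letters of AP-1 (TGANTCA, in 7.81% of promoters), of the cAMP response element (TGACGTCA, 1.79%) and of NF-kB (GGGANTTCC, 1.68%) were in none of these windows on either strand. Base composition was 63.7% G and C for Marcksl1 and 75.3% for Prkca, against a median of 52.7% over all promoters. A match is a description of the letters and not evidence of binding. No promoter is shown for Marcks, Prkce and Prkch.

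The lists from here on were chosen with earlier results of these libraries known, so their p-values are not independent support. The rest of the PKC superfamily was read from a list of 9 genes, of which 7 passed the filter. Of these, 3 rose, 1 fell and 3 did not pass, with a median log2 fold change of -0.19, against -0.01 over all genes tested. Prkd2, a protein kinase D that PKC isoforms activate, had 5.96, 5.73 and 5.43 FPKM in RANKL + etelcalcetide libraries, against 2.06, 2.23 and 2.26 FPKM in RANKL libraries (log2 fold change 1.27, SE 0.0914, limma adjusted p = 9.24e-06). Pkn3, a relative of PKC that supports bone resorption in mouse osteoclasts, fell to 3.03, 3.32 and 3.11 FPKM in RANKL + etelcalcetide libraries, against 5.96, 7.49 and 8.20 FPKM in RANKL libraries (log2 fold change -1.24, SE 0.121, limma adjusted p = 5.3e-05). Neither gene overlapped between the groups.

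The other 3 tested genes of that list did not pass. Prkci, the atypical PKC iota, averaged 10.7 ± 0.535 FPKM with etelcalcetide and 11.6 ± 1.22 FPKM with RANKL alone (SD, n = 3 each; log2 fold change -0.19, limma adjusted p = 0.0901). Prkd3 had -0.24 (limma adjusted p = 0.0567) and Pkn2 had -0.22 (limma adjusted p = 0.204) on the same scale. Without RANKL replicate 3 all 7 tested genes passed, with limma adjusted p = 0.0146 for Prkci, 0.0172 for Prkd3 and 0.039 for Pkn2. Prkcz, the atypical PKC zeta, held 3 reads in each group, and Prkd1 held 0 reads in every library.

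Diacylglycerol, the lipid that switches on conventional and calcium-independent isoforms, is made by phospholipase C and removed by diacylglycerol kinases and lipases. Of 15 phospholipase C genes 7 were tested, of which 2 rose, 2 fell and 3 did not pass (median -0.04). Plcb4, a G-protein-activated enzyme, fell to 4.17, 3.82 and 4.28 FPKM in RANKL + etelcalcetide libraries, against 21.8, 16.9 and 16.0 FPKM in RANKL libraries (log2 fold change -2.20, SE 0.113, limma adjusted p = 1.35e-06). Plcg2, the isoform downstream of immune receptors and the most abundant of the list, rose to 52.1 ± 2.23 FPKM with etelcalcetide, against 37.4 ± 1.36 FPKM with RANKL alone (SD, n = 3 each; log2 fold change 0.40, limma adjusted p = 0.000245). Plcb3 rose by 0.48 (limma adjusted p = 0.000337) and Plcl2, a relative without catalytic activity, fell by 0.30 (limma adjusted p = 0.00693) on the log2 scale.

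Among 12 genes for diacylglycerol removal, 9 were tested, of which 7 rose, 1 fell and 1 did not pass (median 0.69). Of the 7, Dgka, Dgkh and Dagla passed the filter on low values only through the etelcalcetide libraries, as Marcks did, and so had to be higher there. Of the other 6 tested genes, 4 rose and 1 fell (median 0.29). Dgkg, a calcium-responsive diacylglycerol kinase, had 2.05, 2.28 and 2.69 FPKM in RANKL + etelcalcetide libraries, against 0.538, 0.476 and 0.446 FPKM in RANKL libraries (log2 fold change 1.98, SE 0.156, limma adjusted p = 1.58e-05). Dgka, of the same calcium-responsive type, averaged 1.58 ± 0.118 FPKM with etelcalcetide and 0.468 ± 0.0302 FPKM with RANKL alone (SD, n = 3 each; log2 fold change 1.49), and is given without a p-value because of that filter. Of the RANKL libraries of Dgkg, 1 was over the filter. Both kinase genes were without overlap between the groups, at levels far below that of Dgkz, which was named after its values were seen. Dgkz averaged 56.5 ± 0.485 FPKM with etelcalcetide and 45.8 ± 3.25 FPKM with RANKL alone (SD, n = 3 each; log2 fold change 0.23, limma adjusted p = 0.0103). Daglb, a diacylglycerol lipase, rose by 0.69 on the log2 scale (limma adjusted p = 0.000102), and 24.1% of its exon length overlaps antisense Rac1, which held 18565 reads with etelcalcetide and 15918 with RANKL alone. Dgkd fell by 0.18 (limma adjusted p = 0.0361), a call lost under 6 of 13 alternatives, with library totals alone among them (limma adjusted p = 0.191).

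Other proteins that bind diacylglycerol through a C1 domain, as PKC does, were mostly below the filter, with 3 of 10 genes tested. Rasgrp3, an activator of Ras-type GTPases, fell to 11.9, 10.1 and 12.1 FPKM in RANKL + etelcalcetide libraries, against 27.9, 22.9 and 21.4 FPKM in RANKL libraries (log2 fold change -1.15, SE 0.105, limma adjusted p = 3.67e-05). The other 2 tested genes did not pass (median of the 3 tested 0.16).

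PIP2, the lipid that phospholipase C cleaves and the MARCKS effector domain covers, has its enzymes in a list of 18 genes, all tested. Of these, 5 rose, 5 fell and 8 did not pass (median -0.01). Pip5k1b, which makes PIP2, fell to 9.59, 9.45 and 10.5 FPKM in RANKL + etelcalcetide libraries, against 28.6, 29.2 and 27.7 FPKM in RANKL libraries (log2 fold change -1.61, SE 0.0596, limma adjusted p = 2.17e-07). Of the PI3-kinases, which turn PIP2 into PIP3, the leukocyte form Pik3cd rose by 0.63 on the log2 scale (limma adjusted p = 2.06e-05) and the widely expressed Pik3cb fell by 0.61 (limma adjusted p = 0.000299). The levels of these kinases were 32.9 ± 1.07 FPKM with etelcalcetide and 20.2 ± 0.53 FPKM with RANKL alone for Pik3cd, and 6.06 ± 0.155 FPKM with etelcalcetide and 8.83 ± 0.71 FPKM with RANKL alone for Pik3cb (SD, n = 3 each). Pik3ca fell by 0.39 (limma adjusted p = 0.0146), a call lost without etelcalcetide replicate 3 (limma adjusted p = 0.0534). Pip4k2c, which uses the related lipid PI5P, rose by 0.51 (limma adjusted p = 0.000312), and Inppl1, the phosphatase SHIP2, by 0.32 (limma adjusted p = 0.00143). Inppl1 shares 20.3% of its exon length with antisense genes that held 63 reads with etelcalcetide and 29 with RANKL alone. The remaining calls, named after their values were seen, were smaller: Inpp5d (log2 fold change 0.30) and Synj1 (0.22) rose, and Synj2 (-0.29) and Pip5k1c (-0.25) fell.

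Calmodulin competes with membranes for the MARCKS effector domain. Of 8 genes for calmodulin and for other proteins that bind calmodulin or PIP2 in a similar way, 4 were tested, and 1 rose, 2 fell and 1 did not pass (median -0.02). Basp1, a myristoylated membrane protein of the same functional group as MARCKS, rose to 29.7 ± 2.13 FPKM with etelcalcetide, against 17.9 ± 0.367 FPKM with RANKL alone (SD, n = 3 each; log2 fold change 0.65, limma adjusted p = 4.27e-05). Gap43, the neuronal member of that group, had 0 reads in every library. Calm2, one of the genes of calmodulin itself, fell by 0.19 on the log2 scale (limma adjusted p = 0.0284), a call lost under 6 of 13 alternatives.

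The enzymes that act on MARCKS proteins were all 10 tested, and 2 rose, 4 fell and 4 did not pass (median -0.15). The phosphatase catalytic subunits divided, with Ppp1ca higher by 0.52 (limma adjusted p = 0.00011), Ppp2cb higher by 0.32 (limma adjusted p = 0.000423) and Ppp2ca lower, with a log2 fold change of -0.30 (limma adjusted p = 0.00173). Metap2, which removes the first methionine so that myristate can be attached, fell by 0.50 (limma adjusted p = 0.000981), and Nmt2, an enzyme that attaches myristate, fell by 0.40 (limma adjusted p = 0.00392). Ctsb, a protease that can cut MARCKS, also fell, with a log2 fold change of -0.26 (limma adjusted p = 0.0108), and was named after its values were seen. Genes that overlap 16.5% of the exon length of Ppp1ca held 1048 reads with etelcalcetide and 789 with RANKL alone, while those that overlap 41.3% of Ppp2ca held 0 reads.

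Of 18 genes for PKC maturation and anchoring 17 were tested, and 2 rose, 2 fell and 13 did not pass (median 0.05). Hspa8, a chaperone, fell by 0.34 on the log2 scale (limma adjusted p = 0.000779), and Hsp90aa1, a chaperone that new PKC needs, fell by 0.50 (limma adjusted p = 0.0115), with RANKL replicate 1 at 128 FPKM above the 89.1 and 85.4 FPKM of the other RANKL libraries and a log2 fold change of -0.32 without that library. Phlpp2, a phosphatase of the PKC hydrophobic motif, rose by 0.40 (limma adjusted p = 0.0122), and Mtor, the kinase of the complex that phosphorylates it, by 0.17 (limma adjusted p = 0.0361). These last 3 calls were each lost under at least 1 alternative, with limma adjusted p = 0.0534 for Hsp90aa1 without a filter, 0.0519 for Phlpp2 without etelcalcetide replicate 1 and 0.127 for Mtor without etelcalcetide replicate 3. The count for the list was 8 with library totals alone, 7 without RANKL replicate 3 and 2 without etelcalcetide replicate 3, against 4 in the main fit.

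Some PKC isoforms signal to NF-kB through the CARD, BCL10 and MALT1 complex. Of 9 genes of that branch 7 were tested, and 3 rose, none fell and 4 did not pass (median 0.18). Bcl10, the adaptor, rose by 0.45 on the log2 scale (limma adjusted p = 0.000667), Tnfaip3, the feedback inhibitor A20, by 0.46 (limma adjusted p = 0.00995), and Card9, the scaffold of myeloid cells, which PKC delta phosphorylates, by 0.26 (limma adjusted p = 0.0159). The Card9 call was lost without etelcalcetide replicate 3 (limma adjusted p = 0.0815), etelcalcetide replicate 2 (0.05) or RANKL replicate 2 (0.055).

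MARCKS proteins tie the membrane to cortical actin, and 18 of 20 genes on the list for it were tested, of which 9 rose, 2 fell and 7 did not pass (median 0.21). Evl, which speeds actin filament growth, had 12.6, 14.1 and 12.0 FPKM in RANKL + etelcalcetide libraries, against 3.12, 2.63 and 2.69 FPKM in RANKL libraries (log2 fold change 2.08, SE 0.0997, limma adjusted p = 9.41e-07). Its relative Vasp, named after its values were seen, had 202 ± 1.77 FPKM with etelcalcetide and 175 ± 14.9 FPKM with RANKL alone (SD, n = 3 each; log2 fold change 0.13, limma adjusted p = 0.111). Membrane-actin linkers of the same family differed, with Ezr, the gene of ezrin, higher by 0.74 (limma adjusted p = 1.35e-05) and Rdx, the gene of radixin, lower with a log2 fold change of -0.45 (limma adjusted p = 0.00211). Msn, of that family and with the highest FPKM in it, had 121 ± 2.14 FPKM with etelcalcetide and 106 ± 5.12 FPKM with RANKL alone (SD, n = 3 each). Its log2 fold change of 0.11 did not pass (limma adjusted p = 0.0962), and it was named after its values were seen. Tmsb4x, which holds actin monomers, rose by 0.55 (limma adjusted p = 3.03e-05), and Lcp1, an actin bundler of leukocytes, fell by 0.31 (limma adjusted p = 0.00196). Over all 10 lists, 100 of 129 genes were tested, of which 34 rose, 20 fell and 46 did not pass (median 0.09; 3 of the 34 passed the filter only through the etelcalcetide libraries), beside 53.0% called among all genes.

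**Figure D4:**
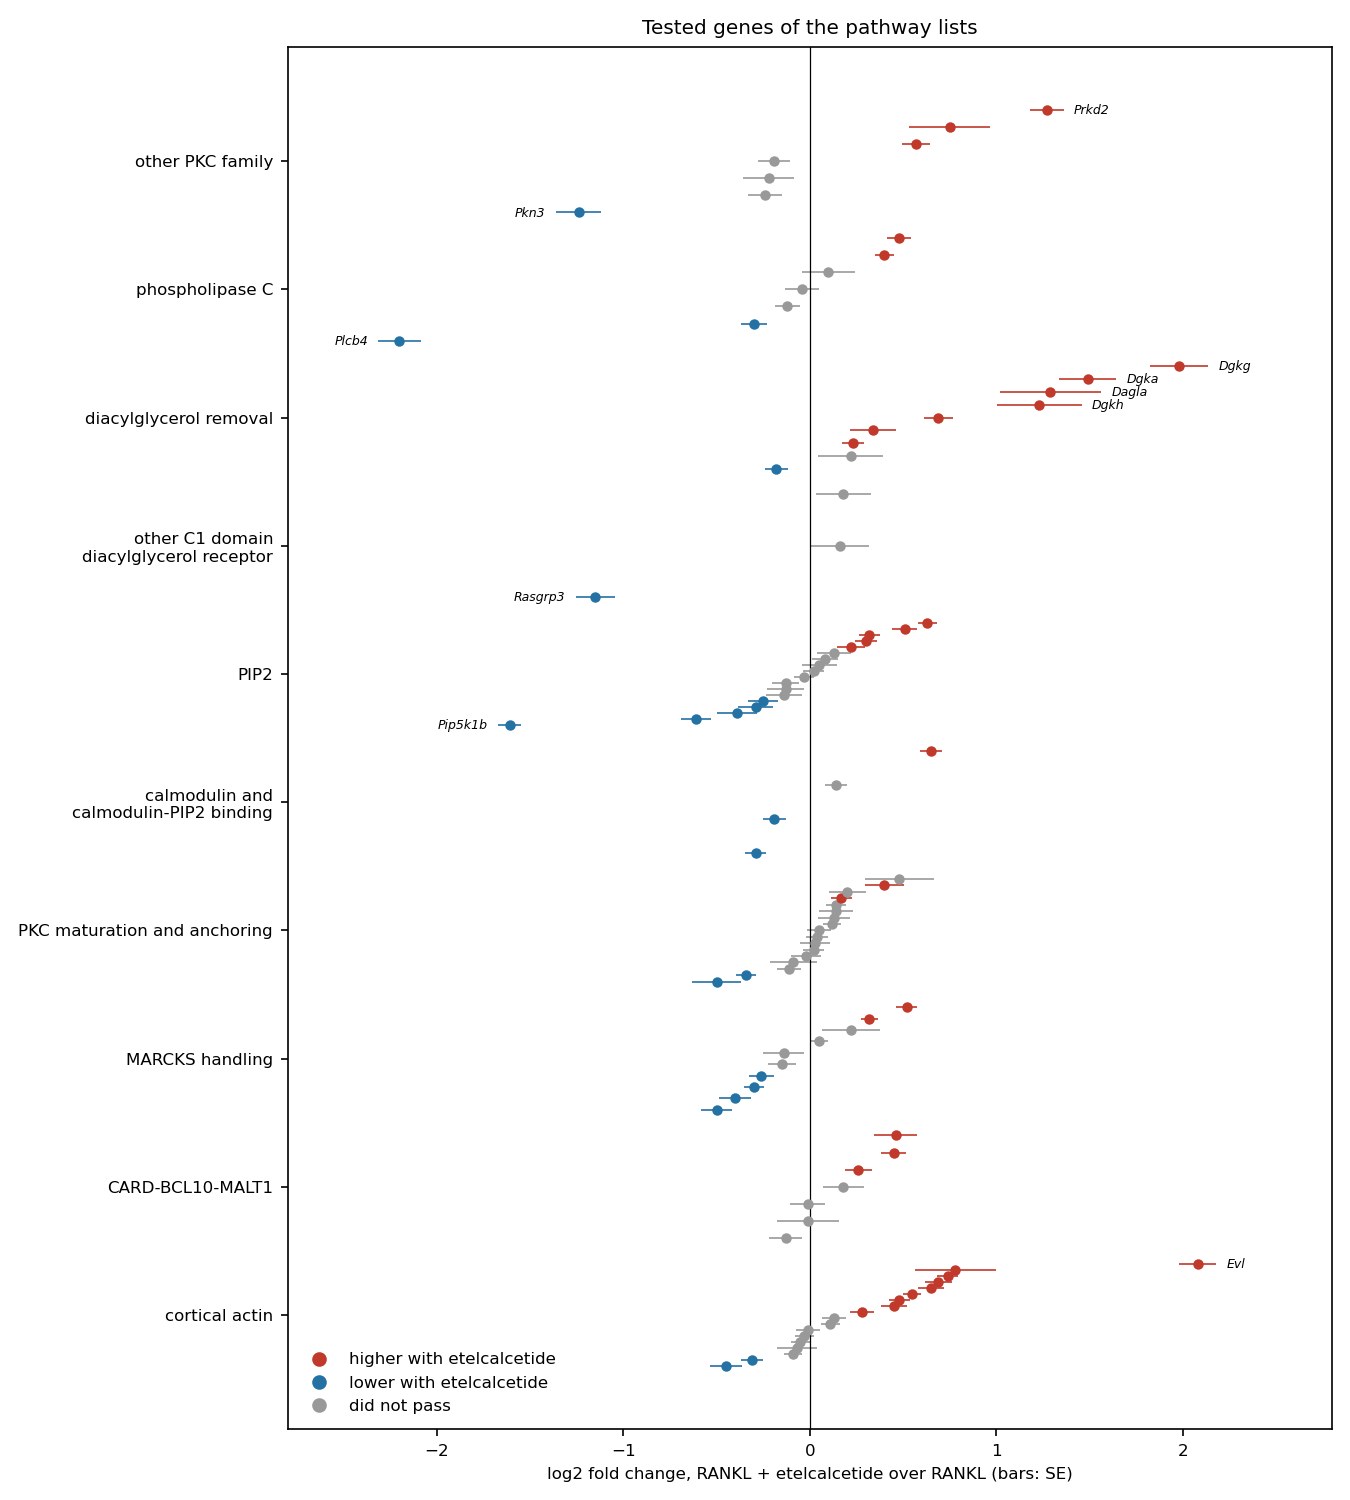
Log2 fold change of RANKL + etelcalcetide over RANKL (horizontal axis, bars show the SE) for the 100 tested genes of the 10 lists, grouped by list and sorted within each. Red points passed higher, blue points passed lower and grey points did not pass; names mark passed genes with a size of at least 1, which run from -2.20 for Plcb4 to 2.08 for Evl.

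For each of the 6 tested genes, the genes with the most similar profile were taken as those with the smallest root-mean-square difference between centred log2 values over the 6 libraries, among 11114 other genes. The points share the same 2 groups, so the measure largely picks genes with a similar difference between them. Nearest to Marcks were Ccl22, a chemokine gene, at 66.3 ± 3.38 FPKM with etelcalcetide and 2.28 ± 0.486 FPKM with RANKL alone, and Il1b, the gene of interleukin-1 beta, at 13.4 ± 2.33 FPKM with etelcalcetide and 0.643 ± 0.0529 FPKM with RANKL alone. Their root-mean-square difference from Marcks was 0.21 for both. This likeness was computed with a pseudocount of 0.1 FPKM and no other, and with 0, 1 and 1 reads in the RANKL libraries the profile of Marcks depends on that choice. Nearest to Marcksl1 were the tubulin gene Tubb2a (0.05) and the B7 family gene Cd276 (0.059). Nearest to Prkca were the adhesion gene Cadm1 (0.042), with 9.01 ± 0.646 FPKM with etelcalcetide and 19.1 ± 1.02 FPKM with RANKL alone, and the aldo-keto reductase gene Akr1b8 (0.044). Prkcd was closest to Ift172 (0.024) and Sh3bp5l (0.025), and Prkch to Trit1 (0.031) and Rad51c (0.033). Slc50a1 was among the 2 genes closest to Prkce (0.04).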

How the data were processed

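RNA abundance was measured by RNA sequencing in 6 libraries of RAW264.7 cells. The deposited values are FPKM per Ensembl gene, made by the authors; the submitters' processing notes name CASAVA, FastQC, MultiQC, the tools featureCounts 1.6.0, HISAT2 2.1.0, Trimmomatic 0.38, DESeq2 1.22.1 and the human build GRCh38, although all 55536 identifiers matched mouse GENCODE M21 (GRCm38). Strandedness and the handling of multiply mapped reads are not given in the sources used here. FPKM times exon length gave whole reads for 100% of values within 0.01 reads in each library, and libraries of a group differed by more than sampling noise. Genes with at least 0.5 FPKM and 10 recovered reads in at least 3 libraries were tested (11120). Values were divided by trimmed-mean (TMM) factors (30% of ratios and 5% of levels trimmed) and log2(FPKM + 0.1) was fitted with limma 3.58.1 (eBayes with trend) in R 4.3.3, with Benjamini-Hochberg adjustment over all genes and a threshold of 0.05. Fold changes are etelcalcetide over RANKL on that scale, which understates those of low genes. Counting intervals are exact (95%). Scripts were tested on simulated data. There the fit recovered 95.7% of 94 genes changed 2-fold and 69.5% of 95 genes changed 1.5-fold. Of its calls 7.69% were false. Far fewer genes were changed there than were called in these data. Alternatives were library totals, upper-quartile scaling, pseudocounts of 1 and 0.01 FPKM, no filter, limma-voom on recovered reads, a replicate block and leaving out each library.

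The 8 genes and the 10 lists were chosen with earlier results of these data known. The text names, of each list, up to 3 genes that passed in each direction with the smallest adjusted p, all genes of the PKC superfamily list, the 2 nearest profiles of each tested gene, and Ctsk, Acp5, Adgre1 and Csf1r; genes beyond this rule were named after their values were seen. Some genes that the rule names are counted in their lists but not reported here.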

Additional observations from a re-analysis of the deposited data

How the results depend on the processing

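The 6 tested genes kept their direction under all 13 alternatives, which for Marcks was fixed by its near absence from the RANKL libraries. The count over all genes stayed between 4797 and 6168, against 5894 in the main fit. With 1 library left out, the count of called genes ranged over 3 to 7 for the other PKC family (4 in the main fit) and 2 to 7 for PKC maturation and anchoring (4 in the main fit), and the second was 8 with library totals alone. The causes were not tested. Fold changes that moved by more than the spread between replicates were those of Marcks (1.75 to 7.11), Prkca (-1.14 with library totals alone and -1.06 with a pseudocount of 1 FPKM), Prkcd (0.51 with library totals alone) and Prkce (0.94 with library totals alone and 0.53 with a pseudocount of 1 FPKM). Among the named list genes, 510 values under an alternative kept their side of the threshold, 30 lost a call, 6 gained one and none reversed. Whether the replicate numbers pair the libraries cannot be settled here, since deviations are taken from means of only 3 libraries. Same-numbered libraries had correlations of deviations of 0.0744, -0.0188 and -0.0299 across genes. Those of differently numbered libraries ran from -0.0989 to 0.115. A fit with the replicate block called 2777 genes higher and 2932 lower. Under the block Mtor lost its call (limma adjusted p = 0.0753) and Prkd3 gained one (limma adjusted p = 0.0449). Depth limits Prkcb, Prkcq, Prkcz and, with RANKL alone, Marcks, which rest on 0 to 9 reads per group.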
